A study of Mus musculus with 9 samples.

Results

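The nuclear-encoded subunits of the respiratory chain and ATP synthase were followed in gastrocnemius, the large calf muscle, of mice aged 6, 15 and 21 months. Members were chosen by gene symbol. They were the symbols that begin with Ndufa, Ndufb, Ndufc, Ndufs or Ndufv and a number, the symbols Sdha, Sdhb, Sdhc and Sdhd, and all that begin with Uqcr, Cox4i, Cox5, Cox6, Cox7, Cox8 or Atp5. The rule found 86 of the 17314 genes in the table. By symbol, 41 belonged to complex I, 4 to complex II, 8 to complex III, 16 to complex IV and 17 to complex V. They lay on 19 chromosomes. The table held 0 symbols with the prefix mt-, which marks mitochondrially encoded genes. Other names of those genes were not searched, and the subunits made from mitochondrial DNA were not analysed here.

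Complex I takes electrons from NADH, and complex II takes them from succinate as part of the citric acid cycle. Both pass them through ubiquinone to complex III and, by way of cytochrome c, to complex IV, which reduces oxygen. The proton gradient built on the way drives complex V, the ATP synthase. In muscle, slow and fast oxidative fibres are known to be rich in mitochondria and fast glycolytic fibres poor in them, and several subunits of complex IV exist as a form of striated muscle and a form of most other tissues.

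Each age had 3 mice and 1 library per mouse. All are of the same tissue, and nothing beyond age separates the groups in the labels, which give neither strain nor sex. Total estimated counts per library ranged from 15354396 to 17317856, and 13044 genes passed the filter on low counts. Levels are given as CPM, counts scaled to the library size after TMM adjustment. The 6 markers of skeletal muscle (Ckm, Acta1, Tnnt3, Myh4, Pvalb and Atp2a1) summed to between 107627 and 167839.5 CPM. Their lowest sum was in 15-month mouse 1, followed by 121598 CPM in 21-month mouse 3, and their highest in 6-month mouse 2. Ucp1 and Cidea, which mark brown fat, summed to at most 2.3 CPM. A principal component that held 35.2% of the variance over all genes set 3 libraries apart, with coordinates of -48.0 for 6-month mouse 2, 27.6 for 15-month mouse 1 and 26.7 for 21-month mouse 3, against -9.8 to 12.1 for the others. The 10 markers of slow fibres were Myh7, Myl2, Myl3, Tnnt1, Tnnc1, Tnni1, Tpm3, Atp2a2, Myoz2 and Casq2. They summed to 337, 110.3 and 244 CPM in the 6-month mice. Their sums were 1303, 694 and 413 CPM in the 15-month mice and 290.0, 390.2 and 1184 CPM in the 21-month mice. Single markers did not all keep the order of the sum. Myh7 stood at 2.30, 0.438 and 12.8 CPM in the 6-month mice. In 6-month mouse 2 Atp2a2 added 53.2 CPM and Tpm3 37.7 CPM to the sum. Myh2, a myosin heavy chain found in oxidative fibres of the fast kind, had levels of 1611, 0.755 and 530.0 CPM at 6 months, of 4395, 2825 and 834 CPM at 15 months and of 1267, 967 and 3642 CPM at 21 months. The libraries that stand apart held the lowest value and the highest 2 values of the slow fibre marker sum and of Myh2. The medians of the members and of each complex are also given without these libraries.

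The subunit transcripts were abundant. Summed over the 86 members they stood at 24024, 21645 and 20686 CPM in the 6-month mice, at 28517, 24360 and 21311 CPM in the 15-month mice and at 20287, 18877 and 27268 CPM in the 21-month mice. The highest library of the older 2 ages was in each case the one with the most slow fibre marker RNA and the most Myh2. Not all other libraries kept this order. In 6-month mouse 2 slow fibre marker RNA and Myh2 were lowest, yet its sum exceeded that of 6-month mouse 3. In 21-month mouse 2 slow fibre marker RNA was higher than in 21-month mouse 1, Myh2 lower and the sum lower. The mean sum of the 6-month mice was 22118 ± 1718 CPM, that of the 15-month mice 24729 ± 3617 CPM and that of the 21-month mice 22144 ± 4493 CPM (SD, n = 3 each). The groups overlapped, and the SD at 15 and 21 months exceeded every difference between the means. In bulk muscle, fewer oxidative fibres and less of these RNAs per fibre cannot be told apart.

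The make-up of the chain by complex varied less than its total. Complex V held 38.2 to 40.4% of the summed member CPM in the 9 libraries, complex I 27.9 to 30.5%, complex IV 13.8 to 15.2%, complex III 9.8 to 10.1% and complex II 6.7 to 7.4%. Levels of different genes are compared per kilobase of transcript, except in the isoform ratios of complex IV below. Per member, complex V averaged 508 CPM per kilobase, complex III 342, complex IV 331, complex II 203 and complex I 198. The highest member was Atp5b, the catalytic beta subunit of the ATP synthase (chromosome 10, 128083307 to 128090388, mm10), at 1283 CPM per kilobase. In complex I it was Ndufa4 at 919 CPM per kilobase, a protein that later work assigns to complex IV. Cox6c led complex IV at 761, Uqcrh, the hinge protein, led complex III at 498, and Sdha, the flavoprotein of succinate dehydrogenase, led complex II at 298 CPM per kilobase.

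**Figure D1:**
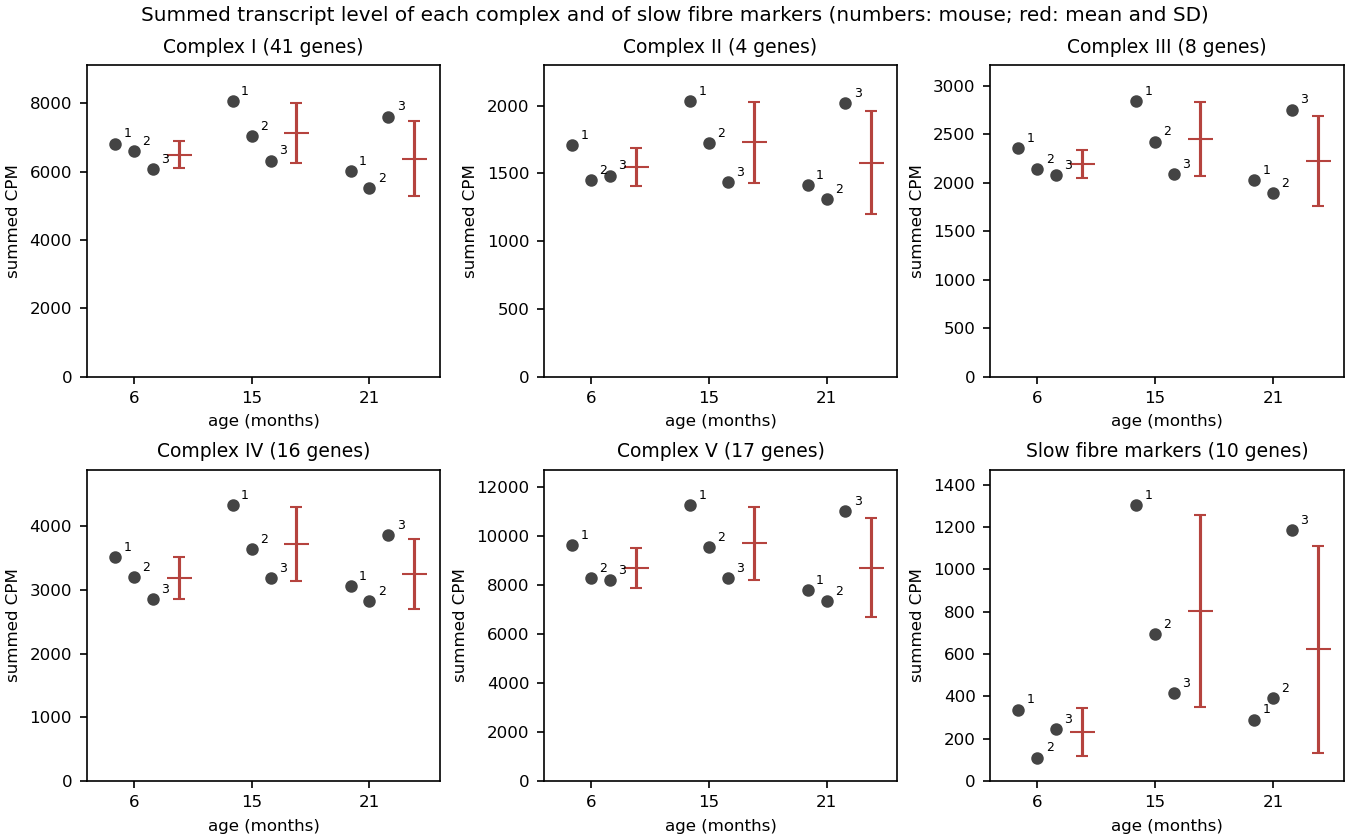
Summed CPM (vertical axis, from 0) of each complex and of the 10 slow fibre markers at 6, 15 and 21 months. Each point is a mouse with its number, and red bars are mean and SD (n = 3). In all 5 complexes 15-month mouse 1 and 21-month mouse 3 are the highest libraries of their age, as they are for the slow fibre markers.

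Of the 86 members 83 passed the filter on low counts. The other 3 had a mean under 1 CPM. Cox6b2, the testis form of a complex IV subunit, stood at 0.0628, 0 and 0.123 CPM in the 6-month mice, at 0.248, 0.493 and 0.190 CPM in the 15-month mice and at 0.180, 0.239 and 0.309 CPM in the 21-month mice. Ndufs6b had at most 0.189 CPM and Ndufb4b at most 0.397 CPM in any library. These 3 members were not tested between ages. Ndufb4, Ndufb4b and Ndufb4c are near-identical copies that share reads, so their separate values are uncertain.

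No subunit transcript passed the adjusted threshold at any age comparison. By edgeR's quasi-likelihood test with Benjamini-Hochberg adjustment over all genes, 0 of 83 members were called at 21 against 6 months, where 0.0153% of all genes tested were called. At 15 against 6 months 0 of 83 were called, where 0.00767% of all genes were, and at 21 against 15 months 0 of 83, where the share over all genes was 0%. The F-test over the 3 ages called 0 members and 0% of all genes. DESeq2 also called 0 members in each, where it called 1.53% of all genes at 21 against 6 months, 0.874% at 15 against 6 months, 0.023% at 21 against 15 months and 1.56% over the 3 ages.

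The members, which vary together across libraries, were also few among low unadjusted p-values, except at 21 against 15 months, where few genes had them. At 21 against 6 months 1 of 83 had an unadjusted p under 0.05, against 10.6% of all genes tested. At 15 against 6 months 2 did, against 10.3% of all genes. At 21 against 15 months 0 did, against 1.82%, which is close to the share over all genes. In the F-test 2 members did, against 8.55%. The smallest adjusted p of any member was 0.377, 0.352 and 0.9999 by edgeR in the order of these 3 comparisons and 0.542 in the F-test. By DESeq2 the smallest were 0.441 at 21 against 6 months, 0.249 at 15 against 6 months and 0.474 over the 3 ages.

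The directions were less evenly split than those of all genes in 2 of the comparisons. At 15 against 6 months 78 of 83 members had a log2 fold change above 0 and 5 below, where 48.6% of all genes lay above and 51.4% below. The median over members was 0.17 against -0.01 over all genes, and the single values ran from -0.09 to 0.55. At 21 against 15 months 82 of 83 lay below 0 and 1 above, where 50.8% of all genes lay below and 49.2% above, with a median of -0.17 against 0.00 over all genes and a range from -0.38 to 0.23. These comparisons share the 15-month mice. At 21 against 6 months 37 lay above 0 and 46 below, where 48% of all genes lay above and 52% below, with a median of -0.02 against -0.01 and a range from -0.23 to 0.68. Scaling by total counts in place of TMM put 69 above 0 at 21 against 6 months, with a median of 0.06 where that of all genes moved to 0.07. The members vary together across libraries, so their count is not a count of independent differences.

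**Figure D2:**
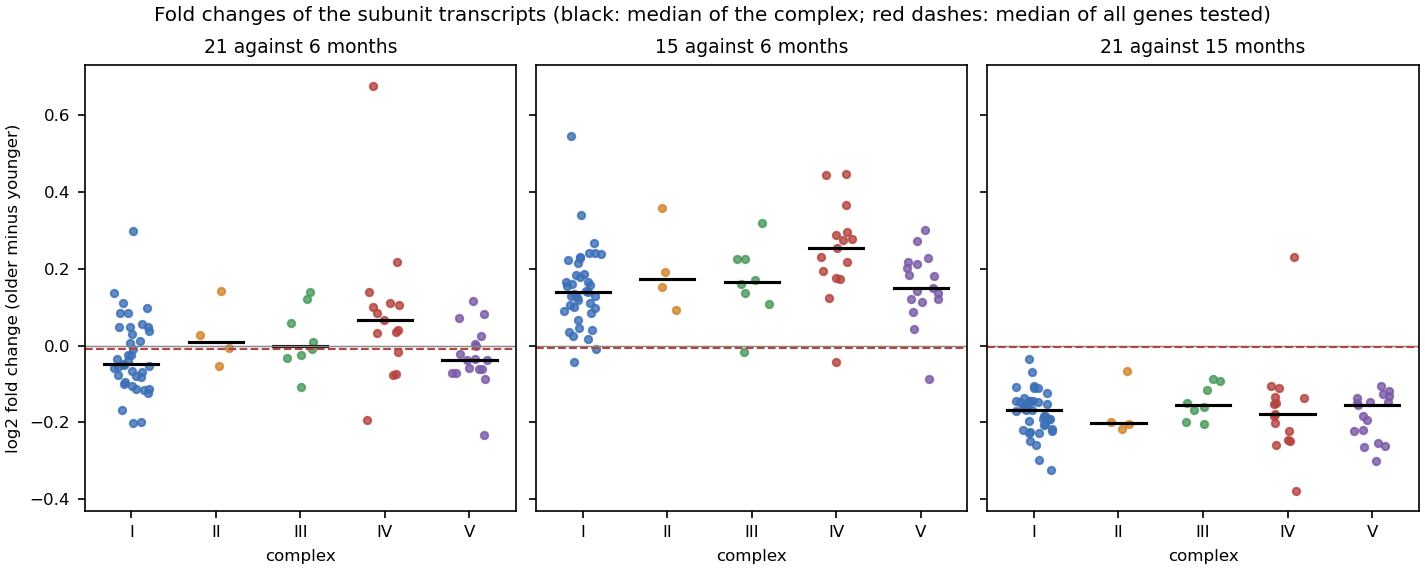
Log2 fold change (vertical axis, older minus younger) of the 83 subunit transcripts that passed the filter, by complex, in each age comparison. Points are genes, black bars the median of a complex and red dashes the median of all genes tested. At 15 against 6 months the medians of the complexes lie between 0.14 and 0.25, and at 21 against 15 months between -0.20 and -0.16.

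The size of these medians moved with single libraries, and at 21 against 6 months so did the sign. Without 15-month mouse 1 the median of the members at 15 against 6 months was 0.05, with 65 above 0. At 21 against 15 months it was then -0.06, with 71 below 0. Without 21-month mouse 3 the median at 21 against 15 months was -0.32, and 35 of 83 members had an unadjusted p under 0.05, against 5.4% of all genes. At 21 against 6 months it was then -0.17, with 77 below 0 and 3 at an unadjusted p under 0.05, against 9.94% of all genes. Leaving out 21-month mouse 2 instead gave 0.08 there, with 70 above 0. Without 15-month mouse 3 the median at 15 against 6 months was 0.27, with 10 members at an unadjusted p under 0.05 against 10.8% of all genes. In none of these fits was a member called after adjustment by edgeR. In 21-month mouse 3 all 83 members lay above their group mates. The counts at low p without that mouse therefore follow in part from which library was left out, and the members are not independent.

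Without all 3 libraries that stand apart, 2 mice were left at each age. At 21 against 6 months 73 of 83 members then lay below 0, where 51.9% of all genes did, with a median of -0.15, and 10 members had an unadjusted p under 0.05 against 12.2% of all genes. At 15 against 6 months 64 lay above 0 and 19 below, where 49.5% of all genes lay above and 50.5% below, with a median of 0.07. There 0 members had an unadjusted p under 0.05, against 11.1% of all genes. At 21 against 15 months 81 lay below 0, where 50.4% did, with a median of -0.22. Of these, 15 members had an unadjusted p under 0.05, against 6.91% of all genes. Again 0 members were called by edgeR after adjustment. In 15-month mouse 1 and 21-month mouse 3, both left out here, all 83 members lay above their group mates. Values below 0 at 21 against 15 months prevailed with and without these libraries, none past the adjusted threshold, while the balance at 21 against 6 months depended on which were used.

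Complex I, the entry point for NADH, had 39 members that passed the filter. Their median log2 fold change was -0.05 at 21 against 6 months, 0.14 at 15 against 6 months and -0.17 at 21 against 15 months. Without the 3 libraries that stand apart they were -0.14, 0.08 and -0.21. Within the complex, over all libraries, the 10 members of the NADH-binding module had medians of -0.00, 0.11 and -0.13 in that order, the 6 of the ubiquinone-binding module -0.07, 0.11 and -0.14, and the 20 of the membrane arm -0.05, 0.16 and -0.19. Ndufv1, the flavoprotein that binds NADH, stood at 333, 272 and 276 CPM in the 6-month mice, at 435, 363 and 316 CPM in the 15-month mice and at 286, 275 and 407 CPM in the 21-month mice. The ages overlapped, and the log2 fold change at 15 against 6 months was 0.34 (SE 0.18, adjusted p = 0.542).

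Ndufs5, an accessory subunit of the membrane arm, was the steadiest member, with a highest library only 1.24-fold above its lowest. It stood at 80.8, 74.4 and 89.0 CPM in the 21-month mice, all below the 90.6, 90.9 and 89.1 CPM of the 15-month mice. It was the only member whose groups did not overlap in that comparison, where 3.31% of all genes had all older mice below all younger ones and 2.84% all above. The highest 21-month mouse and the lowest 15-month mouse were nearly level, and the log2 fold change was -0.15 (SE 0.094, adjusted p = 0.9999, a value shared by all members in that comparison). Ndufc1 and Ndufb4c had the lowest log2 fold changes of the complex at 21 against 6 months, -0.20 each (SE 0.13 and 0.12, adjusted p = 0.612 and 0.586). Ndufa8 had the lowest at 21 against 15 months, -0.32 (SE 0.21, adjusted p = 0.9999), followed by Ndufa3 at -0.30 (SE 0.16).

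Ndufa4l2, a relative of Ndufa4 known as a target of hypoxia-inducible factor, had the smallest p of all members at 15 against 6 months. It stood at 10.1, 10.7 and 8.78 CPM in the 15-month mice, against 7.54, 5.63 and 7.11 CPM in the 6-month mice, so the groups did not overlap. The log2 fold change was 0.55 (SE 0.17, adjusted p = 0.352). Cox8a was the other member with this property there, where 6.63% of all genes had all older mice above all younger ones and 7.15% all below. At 21 months Ndufa4l2 stood at 6.67, 8.65 and 9.63 CPM, a log2 fold change of 0.30 against 6 months (SE 0.17, adjusted p = 0.575). In muscle this gene is known from pericytes and smooth muscle cells more than from fibres. The 3 smooth muscle markers summed to 195, 170 and 157 CPM at 15 months and to 186, 74.1 and 140 CPM at 6 months, and their part in the difference was not tested.

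Complex II, succinate dehydrogenase, is built from 4 nuclear genes, and all 4 were measured. Sdhb, its iron-sulphur subunit (chromosome 4, 140961271 to 140979198, mm10), was after Cox4i2 the most variable of the members that passed the filter, 2.08-fold between its highest and lowest library. It stood at 298, 197 and 253 CPM in the 6-month mice, at 409.8, 315 and 234 CPM in the 15-month mice and at 217, 212 and 396 CPM in the 21-month mice. The lowest library and the highest 2 were those that stand apart. With an SE of 0.27 in each comparison, the log2 fold change was 0.14 at 21 against 6 months, 0.36 at 15 against 6 months and -0.22 at 21 against 15 months. The smallest adjusted p was 0.685. Without the 3 libraries the first of these was -0.36 and the second -0.0033.

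The other subunits of complex II varied less. Sdha stood at 906, 837 and 781 CPM at 6 months, at 1022, 889 and 780.0 CPM at 15 months and at 819, 718 and 1035 CPM at 21 months. The membrane anchors Sdhc and Sdhd ranged from 187 to 292 CPM and from 185 to 311 CPM over the 9 libraries. The median log2 fold changes of the complex were 0.01, 0.17 and -0.20 at 21 against 6, 15 against 6 and 21 against 15 months. Without the 3 libraries that stand apart they were -0.34, -0.01 and -0.32, so the first 2 changed sign.

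Complex III passes electrons from ubiquinol to cytochrome c. Its 8 members had median log2 fold changes of 0.00, 0.17 and -0.16 in the same order, and of -0.09, 0.07 and -0.19 without the 3 libraries. Uqcrq, a small accessory subunit, had the highest at 15 against 6 months, 0.32 (SE 0.19, adjusted p = 0.603), with 206, 161 and 132 CPM in the 15-month mice and 151, 124 and 124 CPM in the 6-month mice. Uqcrb was the lowest there, at -0.02 (SE 0.16). It stood at 278, 240.4 and 213 CPM at 15 months and at 228, 297 and 214 CPM at 6 months, and its highest library of all was 6-month mouse 2, where the slow fibre markers were lowest. Uqcrfs1, the Rieske iron-sulphur protein, had the lowest value at 21 against 15 months, -0.20 (SE 0.19, adjusted p = 0.9999). Uqcrc2, a core protein, shares 504 exon bases with Pdzd9 on the opposite strand, and the strand setting of the counter is unknown here.

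Complex IV reduces oxygen to water. Its 15 members that passed had median log2 fold changes of 0.07, 0.25 and -0.18 in the same order, and of -0.10, 0.12 and -0.17 without the 3 libraries. Cox4i2, the form of subunit 4 known from lung and from hypoxia (chromosome 2, 152753916 to 152765039, mm10), had the highest value at 21 against 6 months, 0.68 (SE 0.26, adjusted p = 0.377). It stood at 2.52, 2.51 and 3.46 CPM in the 21-month mice, against 2.20, 1.44 and 1.66 CPM in the 6-month mice. It was the only member in which the groups did not overlap there, where 7.83% of all genes had all older mice above all younger ones and 8.3% all below. It was also the only member with a value above 0 at 21 against 15 months, 0.23 (SE 0.25). These levels rest on 23 to 56 counts per library. The 3 smooth muscle markers summed to 117, 152 and 204 CPM at 21 months and to 186, 74.1 and 140 CPM at 6 months, and their part in the difference was not tested.

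Cox8a, the form of subunit 8 found in most tissues, stood at 28.3, 25.0 and 22.6 CPM in the 15-month mice, all above the 21.4, 19.2 and 18.3 CPM of the 6-month mice. The log2 fold change was 0.37 with an SE of 0.12 (adjusted p = 0.365). Cox7a1, the striated muscle form of subunit 7a, had the third largest value of all members at 15 against 6 months, 0.44 (SE 0.20, adjusted p = 0.489), and the lowest at 21 against 15 months, -0.38 (SE 0.20, adjusted p = 0.9999). It stood at 82.2, 63.6 and 64.8 CPM at 6 months, at 112, 103 and 71.5 CPM at 15 months and at 63.9, 62.5 and 94.2 CPM at 21 months. Cox7a2l, a factor of respiratory supercomplexes, was lowest of the complex at 21 against 6 months, -0.19 (SE 0.16, adjusted p = 0.714), and 6-month mouse 3 had the lowest level of all, 92.9 CPM.

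The muscle forms of complex IV could be set against their counterparts within each library, which does not depend on scaling. Cox6a2 had 35.8 to 43.4 counts for each count of Cox6a1, and Cox8b had 4.98 to 6.62 for each count of Cox8a. Cox7a1 by contrast had 0.39 to 0.56 counts for each count of Cox7a2. These ratios are not corrected for transcript length. Per kilobase, Cox7a1 averaged 203 and Cox7a2 256 CPM over the libraries, so their levels were closer than the counts. Cox6a2 averaged 696 and Cox6a1 21.0 CPM per kilobase, and Cox8b 354 and Cox8a 41.1. The log2 ratio of Cox6a2 to Cox6a1 averaged 5.29 ± 0.13 at 21 months and 5.36 ± 0.11 at 6 months (SD, n = 3 each), a difference of -0.07 (two-sided exact permutation p = 0.6).

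The ratio of Cox4i2 to Cox4i1 showed the largest difference of the 4 pairs. On the log2 scale it stood at -7.51, -7.42 and -7.56 in the 21-month mice, against -8.08, -8.22 and -8.17 in the 6-month mice, a difference of 0.66. Against the 15-month mice, at -7.97, -8.33 and -7.73, the difference was 0.51. In both comparisons all 21-month mice lay above all younger ones. The log2 ratio of Cox8b to Cox8a stood at 2.47, 2.47 and 2.32 in the 21-month mice, all below the 2.51, 2.73 and 2.56 of the 6-month mice, a difference of -0.18. Each of these 3 comparisons had a two-sided exact permutation p of 0.1, the smallest that 3 against 3 mice allow, and 0.4 after adjustment over the 12 ratios compared. Without the libraries that stand apart the difference of Cox8b to Cox8a was -0.07.

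**Figure D3:**
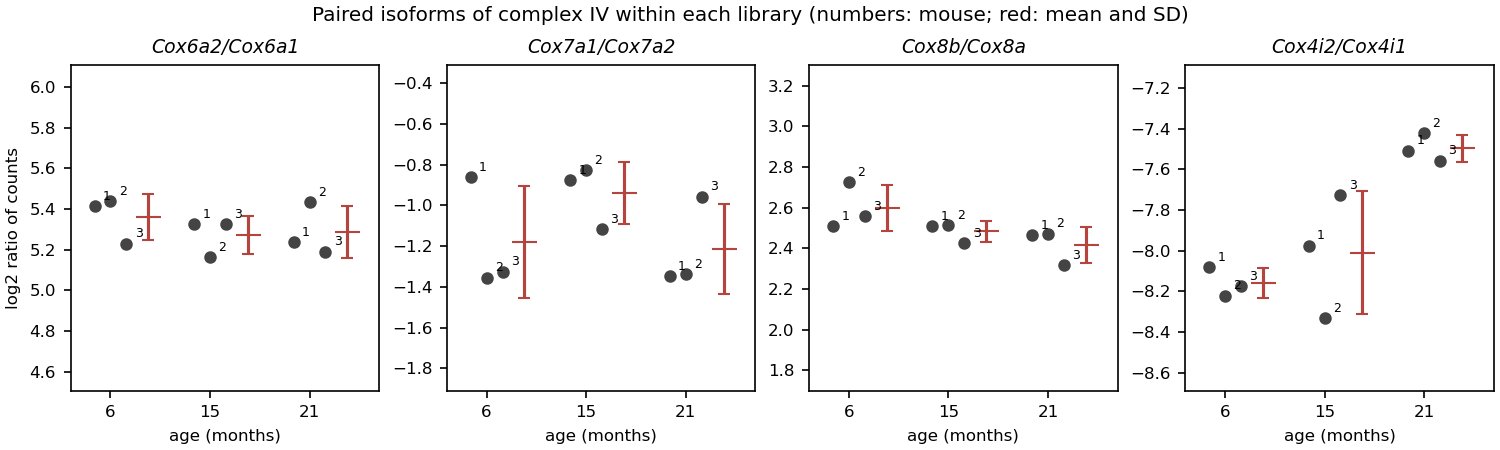
Log2 ratio of counts (vertical axis) of 4 isoform pairs of complex IV in each library at 6, 15 and 21 months. Points are mice with their numbers, red bars mean and SD (n = 3), and every panel spans the same height. The 3 mice at 21 months lie above all others for Cox4i2 against Cox4i1, and for Cox7a1 against Cox7a2 1 mouse at 6 months and 1 at 21 months lie above the others of their age.

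Complex V, the ATP synthase, had 17 members, all of which passed the filter. The median log2 fold changes were -0.04, 0.15 and -0.16 at 21 against 6, 15 against 6 and 21 against 15 months, and -0.22, 0.0020 and -0.24 without the 3 libraries. Atp5b stood at 2739, 2261 and 2126 CPM in the 6-month mice, at 2969, 2563 and 2307 CPM in the 15-month mice and at 2084, 2026 and 3043 CPM in the 21-month mice, so that the 21-month mice held both its highest and its lowest level. Among the 3 genes for the proton-carrying c subunit, whose mature proteins are identical, Atp5g1 and Atp5g3 had their highest level in 15-month mouse 1 and Atp5g2 in 6-month mouse 1. Atp5g1 stood at 353, 280.1 and 292 CPM in the 6-month mice, at 435, 348 and 282 CPM in the 15-month mice and at 269, 235 and 386 CPM in the 21-month mice. Atp5g3 stood at 485, 350.1 and 431 CPM in the 6-month mice, at 592, 484 and 361 CPM in the 15-month mice and at 347, 316 and 570.2 CPM in the 21-month mice. Atp5g2 had the lowest log2 fold change of all members at 21 against 6 months, -0.23 (SE 0.12, adjusted p = 0.535), with 136, 122 and 150.3 CPM at 21 months and 176, 171 and 134 CPM at 6 months. Per kilobase Atp5g3 averaged 613, Atp5g1 537 and Atp5g2 338 CPM.

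Atp5md had the highest value of complex V at 15 against 6 months, 0.30 (SE 0.16, adjusted p = 0.561), and Atp5g2 the lowest, -0.09 (SE 0.12). Atp5k had the lowest at 21 against 15 months, -0.30 (SE 0.20, adjusted p = 0.9999), with 52.7, 56.1 and 76.3 CPM at 21 months and 97.0, 76.5 and 54.5 CPM at 15 months. Atp5mpl stood at -0.26 there (SE 0.13), and Atp5pb, the b subunit of the peripheral stalk, had the highest value, -0.10 (SE 0.17). None of these groups was free of overlap.

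**Figure D4:**
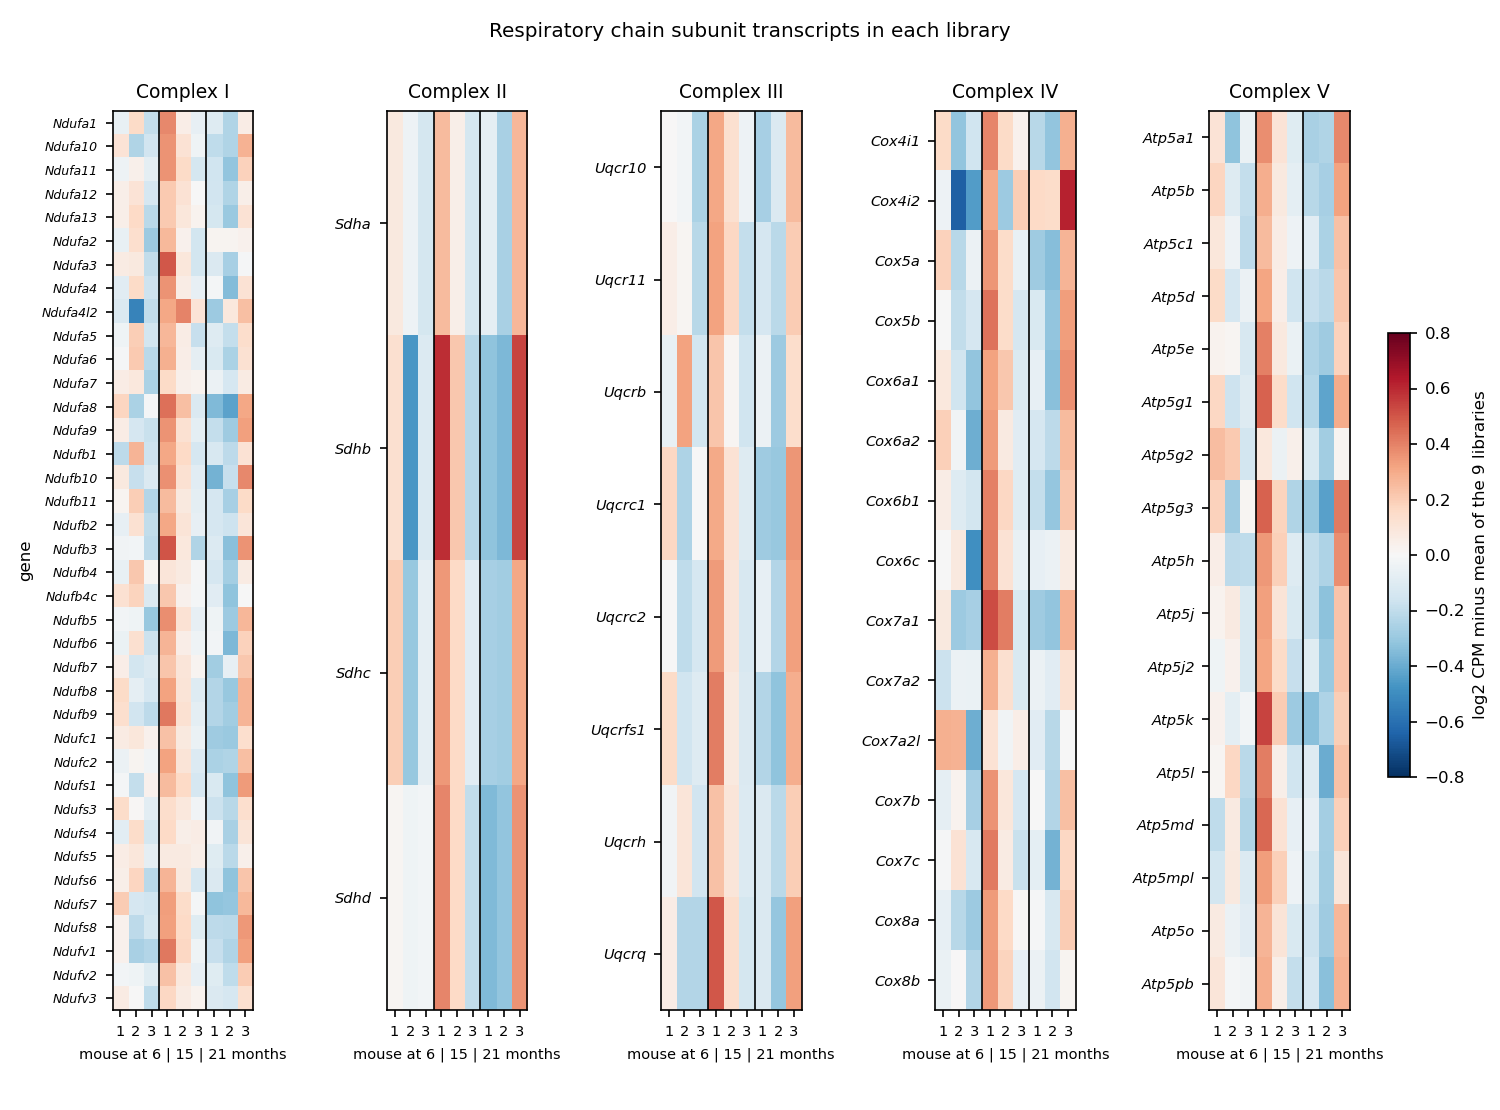
Level of 82 of the 83 subunit transcripts in each of the 9 libraries, as log2 CPM minus the mean of that gene over the libraries (colour, red high and blue low), with genes in rows and mice 1 to 3 of each age in columns. Columns of 15-month mouse 1 and 21-month mouse 3 are red in nearly every row, and 21-month mouse 2 is the bluest, with the lowest value of 56 of the 83 members.

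Levels of the chain differed as a block between mice of one age. Of 83 members 65 had their highest value in 15-month mouse 1 and 10 in 21-month mouse 3, while 56 had their lowest in 21-month mouse 2. The ratio of the highest to the lowest library had a median of 1.54 over members and ran from 1.24 for Ndufs5 to 2.40 for Cox4i2. In 15-month mouse 1 all 83 members lay above the mean log2 CPM of the other mice of that age, where 51.7% of all genes did, with a median difference of 0.31. In 21-month mouse 3 all 83 lay above their group mates, where 49.6% of all genes did, with a median difference of 0.43. These are descriptions of single mice, with no test.

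In 6-month mouse 2, the library at the other end of the component, the chain split. Of 83 members 44 lay above the mean of the other 6-month mice and 39 below, where 49.9% of all genes lay above. All 4 members of complex II were below, with Sdhb at -0.48 and Sdhc at -0.36, and so were Atp5g3 at -0.39, Atp5a1 at -0.35, Uqcrc1 at -0.33 and Ndufa8 at -0.33. Ndufb1 at 0.46, Uqcrb at 0.42, Cox7a2l at 0.33 and Cox6c at 0.32 were above. In complex I, 8 of 10 members of the NADH-binding module were above and 5 of 6 of the ubiquinone-binding module below. This mouse had the least slow fibre marker RNA, 110.3 CPM, with Myh7, the slow myosin, at 0.438 CPM, and the least Myh2, 0.755 CPM.

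Members that were lowest in 6-month mouse 2 tended to be highest in 21-month mouse 3. Across the 83 genes the 2 sets of differences had a Spearman rho of -0.75, while those of 15-month mouse 1 and 21-month mouse 3 had a rho of 0.49 and those of 6-month mouse 2 and 15-month mouse 1 a rho of -0.23. Each set comes from different mice, but all share 1 library scaling and the genes are not independent replicates. The differences in 21-month mouse 3 were largest for Sdhb at 0.88, Atp5g3 at 0.78, Ndufa8 at 0.70 and Sdhd at 0.70, and smallest for Ndufa2 at 0.01, Cox8b at 0.12 and Cox6c at 0.12. Transcript length moved with these values, with a rho over 81 members of -0.36 in 6-month mouse 2, -0.15 in 15-month mouse 1 and 0.29 in 21-month mouse 3. In 6-month mouse 2, 28 of the 41 members of at most 714 bases lay above their group mates, with a median of 0.10, and 14 of the 40 longer ones did, with a median of -0.06. The part of length in these differences was not tested.

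**Figure D5:**
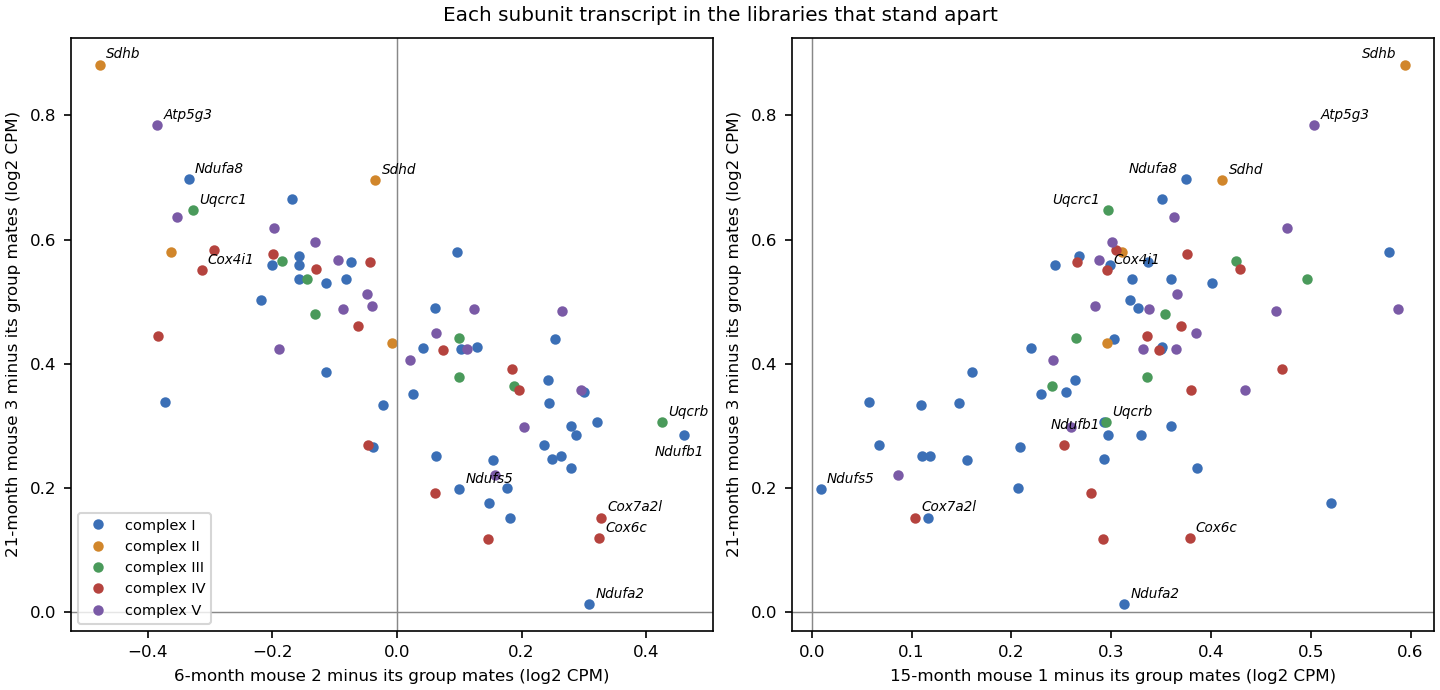
Difference of each of the 83 subunit transcripts in 21-month mouse 3 from its group mates (vertical axis, log2 CPM) against the same difference in 6-month mouse 2 (left) and in 15-month mouse 1 (right), with colours by complex. In the left panel the points fall from Sdhb at the upper left to Ndufa2 at the lower right, and in the right panel all points lie above 0 on both axes.

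Promoter sequence was looked at for the members that differed most in 21-month mouse 3. RefSeq promoters (GRCm38.p6, 250 bases before to 50 after each start) were given for 69 of the 86 members. On both strands, 4 short motifs of factors known to act on respiratory genes were searched, and 0 matches of different motifs overlapped. GCGCATGC, of nuclear respiratory factor 1 (NRF1), was in 10 of 69 members (14.5%), against 3.05% of 27025 genes. CCGGAAG, bound by GABPA, was in 17 (24.6%), against 9.93%. AAGATGGC, of YY1, was in 10 (14.5%), against 3.19%, and TCAAGGTCA, of the estrogen-related receptors (ERR), was in Atp5g3 and Sdhd (2.90%), against 0.466%. Among the 13572 genes of the count table with a promoter the shares were 4.83, 16.1, 4.27 and 0.332% in this order. The other 37 members held none of the 4. A match is a stretch of letters and says nothing of binding.

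The stretches below show the matches before the start in the 4 members with the largest difference in 21-month mouse 3, and Cox8b, which differed little there and holds none. These members were picked by those values, and whether matches go with the difference was not tested. Cox8b, at 0.12, was not the member that differed least, which was Ndufa2 at 0.01. Matches also lie in members with smaller differences there, such as Atp5g2 at 0.22 (NRF1) and Ndufa3 at 0.18 (YY1). Capitals mark the match on either strand. Where the match lay in a stretch that GENCODE annotates as exon, 30 bases around it are shown, and otherwise the unbroken stretch free of exons that holds it. For Cox8b all 250 bases before the start are shown, none of them annotated as exon. The start used for Atp5g3 lies inside the span of that gene (chromosome 2, 73908447 to 73912464), so it is not the outermost one.
Sdhb, NRF1 match from position -54, chr4:140961206-140961235, plus strand: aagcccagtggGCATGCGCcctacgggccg
Ndufa8, NRF1 match from position -8, chr2:36049339-36049368, minus strand: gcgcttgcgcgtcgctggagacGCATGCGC
Sdhd, GABPA match from position -46, chr9:50603850-50603909, minus strand: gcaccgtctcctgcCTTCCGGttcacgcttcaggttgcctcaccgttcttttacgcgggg
Atp5g3, ERR match from position -52, chr2:73911327-73911576, minus strand: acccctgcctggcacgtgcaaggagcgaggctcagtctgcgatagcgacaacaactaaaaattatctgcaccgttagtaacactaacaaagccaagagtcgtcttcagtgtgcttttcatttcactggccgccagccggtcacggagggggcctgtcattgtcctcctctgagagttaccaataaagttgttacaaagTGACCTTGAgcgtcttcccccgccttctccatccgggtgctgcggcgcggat
Cox8b, no match, chr7:140900447-140900696, minus strand: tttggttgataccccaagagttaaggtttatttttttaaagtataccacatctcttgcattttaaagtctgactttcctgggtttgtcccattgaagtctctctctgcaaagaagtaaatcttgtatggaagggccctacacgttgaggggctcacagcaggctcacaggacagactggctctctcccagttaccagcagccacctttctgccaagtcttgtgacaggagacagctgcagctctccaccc
Sdhb also holds a GABPA match from position 7 after its start and Sdhd an ERR match from position 37 after its start.

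Cycs and Cyc1, which encode cytochrome c and cytochrome c1 and fall outside the symbol rule, had log2 fold changes of -0.12 (SE 0.20) and -0.03 (SE 0.22) at 21 against 6 months. Cyc1 stood at 191, 189 and 306 CPM at 21 months and at 266, 187 and 246 CPM at 6 months. Of the 24 complex IV assembly genes tested, 15 of complex I, 13 of ubiquinone synthesis, 6 of complex III, 4 of complex II and 3 of complex V, 0 were called in any comparison by edgeR. The share called over all genes tested was at most 0.0153% in any comparison. The medians at 15 against 6 months were 0.11 for complex IV assembly, 0.08 for complex I assembly, 0.15 for complex II assembly, 0.16 for complex III assembly, 0.05 for complex V assembly and 0.13 for ubiquinone synthesis, against 0.17 for the subunits. In 15-month mouse 1, where all subunits lay above their group mates, 9 of 15 complex I assembly genes and 13 of 24 complex IV assembly genes did, and in 21-month mouse 3 it was 12 of 15 and 20 of 24.

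Of 13 known regulators of these genes 0 were called by edgeR, where at most 0.0153% of all genes tested were called in any comparison. Esrrg, an estrogen-related receptor of oxidative muscle, had the largest values, 1.22 at 21 against 6 months (SE 0.50, adjusted p = 0.424) and 1.73 at 15 against 6 months (SE 0.50, adjusted p = 0.327). It stood at 20.4, 6.70 and 19.7 CPM in the 6-month mice, at 83.9, 45.9 and 25.8 CPM in the 15-month mice and at 26.7, 26.2 and 56.0 CPM in the 21-month mice. All 6 older mice lay above all 6-month mice. Of all genes tested, 7.83% had all 21-month mice above all 6-month mice, and 6.63% had all 15-month mice above them. The highest 2 libraries of Esrrg and the lowest were again those that stand apart. Ppargc1a, the coactivator of mitochondrial biogenesis, had log2 fold changes of 0.28 (SE 0.15, adjusted p = 0.550) and 0.33 (SE 0.15, adjusted p = 0.495) in these comparisons. Yy1 had -0.30 (SE 0.13, adjusted p = 0.431) and -0.37 (SE 0.13, adjusted p = 0.373). In Yy1 all 6 older mice lay below all 6-month mice. Of all genes tested, 8.3% had all 21-month mice below all 6-month mice, and 7.15% had all 15-month mice below them. Nrf1 and Gabpa had values of -0.17 (SE 0.12) and -0.04 (SE 0.08) at 21 against 6 months.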

How the data were processed

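RNA of 9 gastrocnemius samples was selected with oligo(dT) beads and sequenced from DNA nanoballs, per the labels' protocols. An estimated count per gene and library was deposited by the authors in 1 table, in which 90.0 to 90.7% of values were whole within 0.005. Per the submitters' processing notes, reads were placed on mm10. No source used here names the aligner, the counter, its annotation or its strand setting. Column names carry a life stage and a number that match 1 title each, and 0 columns belonged to other samples.

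Estimated counts were rounded to whole numbers and filtered with filterByExpr of edgeR (minimum count 10). Libraries were scaled with TMM factors of 0.923 to 1.05. With edgeR 4.0.16 under R 4.3.3, 1 quasi-likelihood model took age as its factor over the 9 libraries, with 6 residual and 4.24 prior degrees of freedom and a biological coefficient of variation of 0.164. P-values were adjusted over the 13044 genes tested by Benjamini-Hochberg, with a threshold of 0.05. DESeq2 1.42.0 was an alternative. The procedure was checked on simulated counts. Log2 fold changes are older minus younger. Isoform ratios were compared with two-sided exact permutation tests.

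Levels per kilobase used the shortest principal coding transcript of GENCODE M21, found for 82 members, and all 86 members matched a RefSeq table of GRCm38.p6, whose chromosomes are those of mm10. Exons of 24 of these 82 members share bases with another gene, 22 of them on the opposite strand. Since the strand setting is unknown, it is also unknown whether reads there were counted for the right gene. SD and SE cover the spread between mice, counting error included.

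The members and gene lists were chosen with earlier results of these data known. Members named with values were those with the highest and lowest log2 fold change of each complex in each comparison, the 5 smallest p-values of each comparison, the highest level per kilobase of each complex, isoform pairs of complex IV, Ndufa4, Ndufa4l2, Cox7a2l and members under 1 CPM. The values of 1 member that this rule names are not reported here. Ndufs5, the members named for single libraries and the regulators named were chosen after their values were seen, and Myh2 was then set apart from the list of slow fibre markers.

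The replicate numbers were not taken to pair mice, since correlations of same-numbered deviations from the group means ran from -0.42 to 0.41.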

Additional observations from a re-analysis of the deposited data

How the results depend on the processing

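DESeq2, run on all libraries, called 0 members, and edgeR called 0 under each alternative: RLE or total count scaling, no filter, at least 5 CPM in 3 libraries, only the groups compared, leaving out each library, or leaving out the 3 libraries that stand apart. The fit with the replicate number as a block also called 0 members, with medians of -0.02, 0.16 and -0.16 at 21 against 6, 15 against 6 and 21 against 15 months. Leaving out 1 library at a time, those medians ran from -0.17 to 0.08, from 0.05 to 0.27 and from -0.32 to -0.06. Of 660 values of 39 named results under alternatives, 31 changed sign. None of these results was called. Without the 3 libraries the values were -0.36 (Sdhb), -0.0794 (Uqcrc2) and -0.15 (Atp5h) at 21 against 6 months, -0.015 (Sdha), -0.0033 (Sdhb), 0.036 (Uqcrb) and 0.026 (Cox7a2l) at 15 against 6 months, and 0.073 (Ndufa2) at 21 against 15 months. The log2 ratio of Cox8b to Cox8a at 21 against 6 months was then -0.0656. Total count scaling gave 0.032 (Sdhd) at 21 against 6 months and 0.071 (Uqcrb) and 0.040 (Cox7a2l) at 15 against 6 months. Leaving out 1 library at a time, results that changed sign ran from -0.11 to 0.23 (Atp5h), -0.21 to 0.30 (Sdhb), -0.32 to 0.074 (Sdhd), -0.21 to 0.045 (Uqcrb) and -0.036 to 0.26 (Uqcrc2) at 21 against 6 months, from -0.22 to 0.066 (Cox7a2l), -0.011 to 0.18 (Sdha) and -0.12 to 0.14 (Uqcrb) at 15 against 6 months, and from -0.29 to 0.026 (Atp5pb), -0.13 to 0.077 (Ndufa2), -0.22 to 0.047 (Sdha), -0.57 to 0.0023 (Sdhb) and -0.26 to 0.040 (Uqcrc2) at 21 against 15 months. The cause was not tested. With 3 mice per age the SE of the members named ran from 0.094 to 0.27 on the log2 scale, and Cox4i2 rests on 23 to 56 counts per library.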
